A study of Mus musculus with 6 samples.

Results

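The cells described here are the 80 single haematopoietic progenitor cells of 1 library that pooled multipotent progenitors of the MPP2 type with 3 other sorted populations, CD48+ HSC1, CD48+ HPC1 and CD201-CD48- HPC1. Every cell whose column name carries that library's prefix was taken, which gave 80 of the 497 cells of the series. No measured value entered the choice. The names MPP2-containing library and MPP2-containing cells are used below for all 80, since the columns carry no more than the library and a cell number and none of the 80 can be assigned to its gate.

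The series profiled mouse haematopoietic stem and progenitor cells with a modified Smart-seq2 protocol, which copies the RNA of a single lysed cell, here with enrichment of 3' ends before Illumina HiSeq sequencing. The mice were C57BL/6, and no allele, transgene or treatment is named. The other libraries were double-negative (CD201-CD48- HSC1 and HPC1, 76 cells), HSC1 (CD201+CD48- HSC1 and CD48+ HSC1, 84 cells), HPC1 (CD201+CD48- HPC1 and CD48+ HPC1, 82 cells), HSC2/MPP4 (CD48+ HSC2 and MPP4, 89 cells) and CD48-negative HSC2 (CD48-CD201+ and CD48-CD201- HSC2, 86 cells). Values for these 5 libraries are given below in that order. The MPP2-containing cells share by name the CD201-CD48- HPC1 gate with the double-negative library, the CD48+ HSC1 gate with the HSC1 library and the CD48+ HPC1 gate with the HPC1 library. Per the labels, the HSC1 and HPC1 libraries came from spleen and the rest, this one included, from bone marrow, and the mice were 8 to 10 weeks old, or 8 weeks for the pair of HSC2 libraries, for which total rather than polyA RNA is named. The series title speaks of bone marrow only, so the sources disagree on the tissue of the HSC1 and HPC1 libraries. The labels do not spell out the surface phenotype of HSC1 or HPC1 and do not say how many mice were pooled. Each group is 1 library, so sorting gate, tissue, mouse and library cannot be told apart, and no test between groups was possible. Differences below are descriptions of these libraries.

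As background, MPP2 cells are multipotent progenitors that carry CD48 and CD150, lack FLT3 and are known for a bias towards megakaryocytes and erythroid cells, whereas MPP4 cells carry FLT3 and lean towards lymphoid fates. CD48, a glycoprotein of the SLAM family, is absent from the most quiescent stem cells and appears as cells enter the progenitor pool, while CD201, the endothelial protein C receptor encoded by Procr, marks stem cells with high repopulating capacity. Stem cells are mostly out of cycle, and the step to multipotent progenitor is accompanied by entry into division, which runs from DNA synthesis in S phase through G2 to mitosis (M).

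The library was the deepest of the series. A total of 15019501 counts were recovered for the 80 cells, with 10709 in the shallowest, a median of 145496 and 665551 in the deepest cell. The other libraries had totals of 9885419, 6489907, 11475125, 3924057 and 2778858 counts. The median number of genes with a count per cell was 5796 in the MPP2-containing cells and 2602.5 to 4900 in the others. Levels are therefore given as counts per 1000000 (CPM) of a cell's total, summed over the cells of a library unless a level per cell is named, and shares of cells were also taken after every cell was thinned to 10000 counts. A count of 0 over the whole library allows a level of up to 0.2 CPM here and of 0.261 to 1.08 CPM in the others. Intervals quoted with levels or shares cover counting error only.

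The genes of the gated proteins were checked first. Cd48 (chr1:171682009-171705258, plus strand; all gene positions are on GRCm38, the mm10 build, from GENCODE M21, and all genes with a position are protein coding) had levels of 0, 51 and 505.5 CPM in the lowest, median and highest of the 80 cells, and 66 cells had at least 1 count. After thinning, 39 of 80 cells (48.8%, exact binomial 95% interval 37.4 to 60.2%) had a Cd48 count, against 1.33, 32.5, 16, 54.3 and 4.55% in the other libraries. The share was thus close to that of HSC2/MPP4 and far above those of the double-negative and CD48-negative HSC2 libraries, whose gates excluded the protein. Procr, the CD201 gene, had a count in 12.5% of the thinned cells against 13.3, 41.2, 35.8, 9.88 and 45.5%, so the low end of the series was shared with the double-negative and HSC2/MPP4 cells. Without thinning, 40 cells had Cd48 but no Procr count, 26 had both, 3 had Procr alone and 11 had neither. The rank correlation of the 2 genes over the 80 cells was 0.00, given as a description of cells that share 1 library.

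Other surface genes were compared in the same way. Itga2b, which encodes CD41 of megakaryocytes and early progenitors, stood at 179 CPM, against 122, 55.5, 255, 10.4 and 37.1 CPM. Slamf1, which encodes CD150, was at 26.7 CPM against 26.6, 43.6, 22.9, 2.04 and 0 CPM, at least 24.7-fold higher than in CD48-negative HSC2 cells, where no count was found. Flt3 was at 34.2 CPM against 15, 32.4, 5.84, 286 and 155 CPM. The share of thinned cells with a Flt3 count was 12.5% here, 6.67 to 15% in the double-negative, HSC1 and HPC1 libraries, 65.2% in CD48-negative HSC2 and 85.2% in HSC2/MPP4. Slamf1 and Itga2b transcripts with little Flt3 were found in the double-negative, HSC1 and HPC1 libraries as well, so these genes do not single out cells of the MPP2 gate. Cd34, a sialomucin of progenitors, was at 226 CPM against 151, 217, 83.4, 587 and 573 CPM. Its log2 ratios were 0.55, 0.05, 1.34, -1.34 and -1.30. A log2 ratio here is log2(CPM + 10) of the MPP2-containing library minus the same in the other library, a scale that shrinks the differences of low genes. Cd34 was therefore above HPC1, near HSC1 and below both HSC2 libraries.

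Across 11978 genes, the profile was nearest to HPC1 and farthest from CD48-negative HSC2. Pearson correlations of log2(CPM + 10) over 8689 genes counted in at least 25% of the cells of some library were 0.916, 0.910, 0.936, 0.911 and 0.863. These are correlations across genes, which are not independent replicates. A gene was called higher or lower when its ratio was past 2-fold. Against the double-negative library 241 genes (2.01%) were higher and 244 (2.04%) lower. Against HSC1 the counts were 252 (2.10%) and 320 (2.67%), and against HPC1 they were 101 (0.843%) and 180 (1.50%). Against HSC2/MPP4 264 genes (2.20%) were higher and 260 (2.17%) lower, and against CD48-negative HSC2 449 (3.75%) and 582 (4.86%). These percentages are the background for every count of list members below, and the median over all genes ranged from -0.03 to 0.02 on the log2 scale.

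Genes of cell division were on balance higher against each of the 5 libraries. Of 50 genes that peak in G2 and mitosis (cyclins, kinesins, kinetochore and condensin genes), all 50 were above a ratio of 0 against the double-negative library and against HSC1, and 46, 46 and 49 were above 0 against HPC1, HSC2/MPP4 and CD48-negative HSC2. The numbers past 2-fold were 22, 32, 5, 5 and 32 of 50, against backgrounds of 2.01, 2.10, 0.843, 2.20 and 3.75% of genes, and the numbers 2-fold lower were 0, 0, 0, 1 and 0. The median log2 ratios of the list were 0.93, 1.20, 0.65, 0.53 and 1.26, where the medians over all genes were -0.01, -0.01, 0.00, 0.02 and -0.03. The gene that was 2-fold lower against HSC2/MPP4 was Ect2, an exchange factor needed for cytokinesis, at 15.4 CPM against 44.3 CPM.

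The list holds enzymes and structural proteins of mitotic chromosomes. Mki67, the proliferation antigen that coats mitotic chromosomes, stood at 300.4 CPM, against 135, 85.2, 199, 118 and 71.3 CPM. Cenpf, a kinetochore protein, was at 256 CPM against 154, 131, 98.9, 118 and 105 CPM, with log2 ratios of 0.70, 0.91, 1.29, 1.06 and 1.22. Ccnb2 (chr9:70407692-70421547, minus strand), a B-type cyclin that drives entry into mitosis, had 10.9, 111 and 2544 CPM in the lowest, median and highest cell. Before thinning, all 80 cells of this deepest library had a Ccnb2 count. A level of 50 CPM was reached by 51 of 80 cells, against 15 of 76, 20 of 84, 26 of 82, 22 of 89 and 6 of 86. The cells of the other libraries overlapped the range here, with highest cells of 1340 to 1665 CPM and medians of 0 to 27.6 CPM. Pooled, Ccnb2 stood at 421 CPM against 186, 115, 215, 144 and 136 CPM, and the log2 ratios were 1.14, 1.78, 0.94, 1.48 and 1.56. Top2a, topoisomerase II alpha, which untangles sister chromosomes, was at 602 CPM against 204, 230.1, 385, 464 and 183 CPM. Its log2 ratios of 1.52, 1.35, 0.63, 0.37 and 1.67 passed 2-fold against 3 of the 5 libraries. Aurka, the mitotic spindle kinase, stood at 114 CPM against 38, 27.3, 47.2, 79.8 and 69.8 CPM. Aurka passed 2-fold against the first 3 libraries and not against the HSC2 libraries.

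The promoters of 5 genes of mitosis, the cyclin Ccnb2, the kinase Cdk1 that it binds, the kinase subunit Cks2, the spindle gene Aspm and Top2a, are shown because the G2 and M genes as a group share short promoter elements, the CHR (cell cycle genes homology region) and the CCAAT box, through which such genes are known to be switched on late in the cycle. Each line gives the 120 bases upstream of the annotated start, 5' to 3' on the gene's own strand, from RefSeq on GRCm38.p6. Capitals mark CCAAT (or ATTGG, the same box on the other strand) and TTTGAA (or TTCAAA). The windows are chr9:70421555-70421674 for Ccnb2 (minus strand), chr13:51645112-51645231 for Cks2 (plus strand), chr1:139454653-139454772 for Aspm (plus strand), chr11:99024190-99024309 for Top2a (minus strand) and chr10:69352913-69353032 for Cdk1 (minus strand).
Ccnb2: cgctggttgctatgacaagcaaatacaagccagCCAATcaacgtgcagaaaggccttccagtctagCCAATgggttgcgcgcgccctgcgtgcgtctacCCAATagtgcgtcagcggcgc
Cks2: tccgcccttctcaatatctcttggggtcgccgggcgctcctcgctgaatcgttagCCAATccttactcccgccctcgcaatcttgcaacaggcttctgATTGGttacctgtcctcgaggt
Aspm: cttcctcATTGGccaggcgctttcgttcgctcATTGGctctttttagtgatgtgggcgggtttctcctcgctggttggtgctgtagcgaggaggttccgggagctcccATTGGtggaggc
Top2a: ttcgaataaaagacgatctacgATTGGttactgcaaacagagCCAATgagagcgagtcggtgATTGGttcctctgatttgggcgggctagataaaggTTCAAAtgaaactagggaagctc
Cdk1: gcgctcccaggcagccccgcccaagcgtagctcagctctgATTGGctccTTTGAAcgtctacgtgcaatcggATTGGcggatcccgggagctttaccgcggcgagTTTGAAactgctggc
Each of the 5 windows holds at least 2 CCAAT boxes, and Top2a and Cdk1 hold TTTGAA letters as well, Cdk1 at 2 places. In longer windows of 300 bases around the start, TTTGAA stood at 2 places for Ccnb2, 1 for Aspm and 0 for Cks2.

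In 300-base RefSeq windows (250 before to 50 after the start), searched on both strands with each motif counted on its own whether or not it overlapped another, TTTGAA was found in 32 of 48 windows of the G2 and M list (66.7%), where 44 of its 50 genes matched. It was found in 17.9% of all 32851 windows, in 17.1% of the S phase windows and in 16% of the HSC windows. CCAAT stood in 79.2% of the G2 and M windows and 37.4% of all, but also in 68.6% of the S phase windows, so this box did not set the G2 and M list apart. Both motifs stood together in 27 of 48 (56.2%) and in 6.95% of all. The E2F letters TTTCCCGC or TTTGGCGC, known from genes of DNA synthesis, were in 11 of 35 windows (31.4%) of the S phase list, in 4.17% of the G2 and M windows and in 1.56% of all. A match is a description of these letters and not a bound site.

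Genes of DNA synthesis were on balance higher against 4 libraries, least so against HPC1, and nearly level with HSC2/MPP4. Of 43 S phase genes, 39, 40, 34, 24 and 41 were above a ratio of 0, 10, 8, 1, 0 and 21 were past 2-fold higher and none lower, with median log2 ratios of 0.67, 0.81, 0.27, 0.07 and 1.0. The library was thus close to HSC2/MPP4 for S phase genes but not for the G2 and M genes. Pclaf, the PCNA-associated factor that accumulates in S phase, had 0, 99.1 and 2504 CPM in the lowest, median and highest cell, and 70 of 80 cells had a count. Pooled, it was at 360.2 CPM against 58.8, 164, 227, 401 and 88.9 CPM. Rrm2, the ribonucleotide reductase subunit that is made for DNA synthesis, was at 125 CPM against 29, 53.6, 115, 112 and 30.2 CPM, so HPC1 and HSC2/MPP4 stood close to it. Tyms, thymidylate synthase, was at 311 CPM against 113, 128, 266, 170.5 and 95 CPM. E2f8, a repressor in the E2F family that is itself made in S phase, was at 30.6 CPM against 2.83, 8.78, 24, 13.8 and 2.16 CPM. Of 20 nucleotide synthesis genes, 5, 3, 0, 0 and 6 were 2-fold higher and none lower, with median log2 ratios of 0.35, 0.49, 0.13, -0.05 and 0.46.

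**Figure D1:**
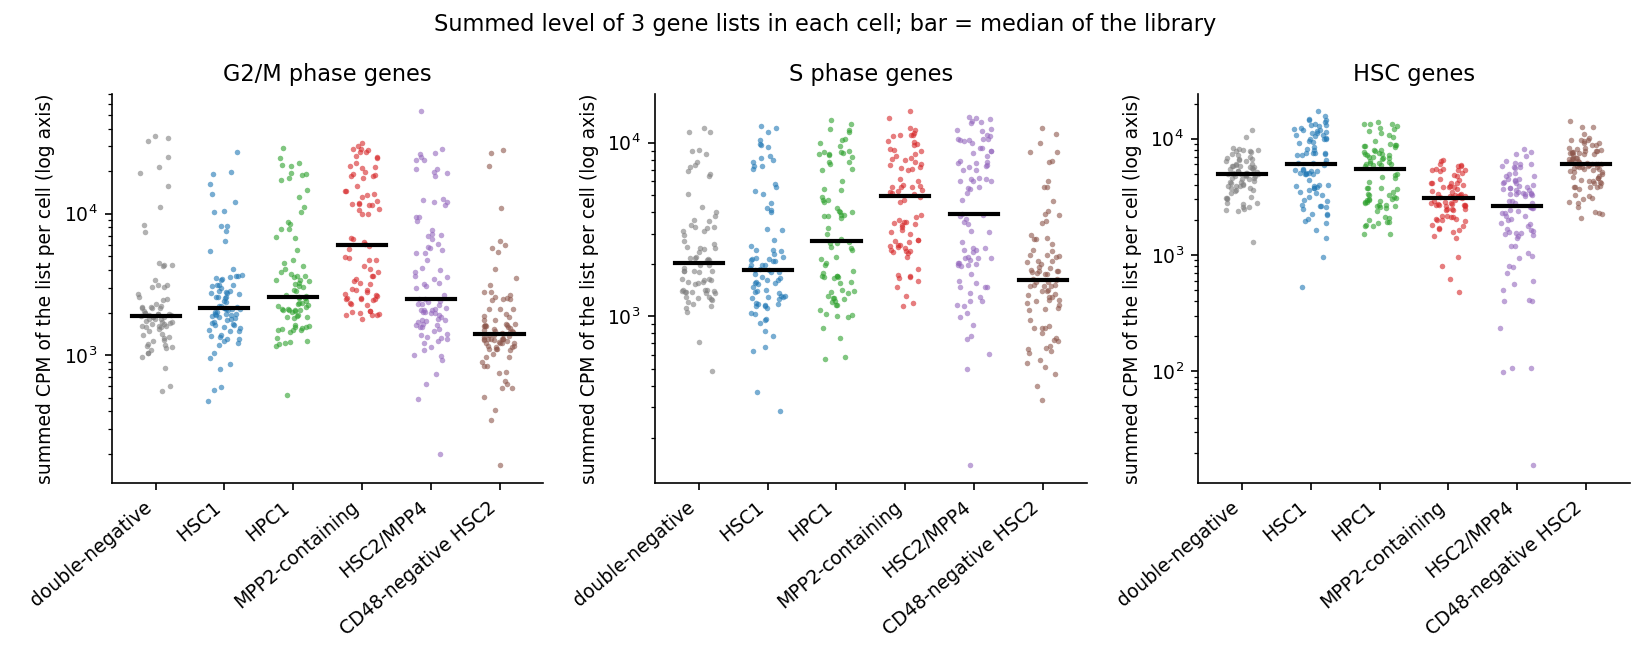
Summed CPM per cell of the G2/M, S phase and HSC gene lists in the 6 libraries, 1 point per cell, bar at the library median, log axis. The MPP2-containing cells have the highest median for G2/M genes (5997 CPM) and a low median for HSC genes (3080 CPM), with ranges that overlap those of every other library.

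Cell by cell, the summed level of the 50 G2 and M genes ran from 1797 to 31781 CPM with a median of 5997 CPM. The medians elsewhere were 1905, 2155, 2594, 2475 and 1416 CPM. A level of 10000 CPM was reached by 34 of the 80 cells (42.5%, 31.5 to 54.1%), with 9 cells within 20% of that value, which is a range and not a cell type. In the other libraries 8 of 76, 8 of 84, 14 of 82, 17 of 89 and 4 of 86 cells reached it. Thinning left the share at 42.5% and gave 10.7, 8.75, 16, 22.2 and 6.06% in the others. The MPP2-containing cells therefore held the largest share of these 6 libraries at both depths. With 1 library each, no test between the shares was possible, and the counting intervals after thinning, 31.5 to 54.1% here and 13.7 to 32.8% in HSC2/MPP4, overlapped. S phase genes summed to 5000 CPM or more in 40 cells, against 13, 18, 25, 43 and 10, so HSC2/MPP4 had a similar share.

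Setting both sums side by side, 17 cells were at or above both levels, 17 were above for G2 and M genes alone, 23 for S phase genes alone and 23 for neither. The cells with neither numbered 58 of 76, 63 of 84, 47 of 82, 35 of 89 and 74 of 86 elsewhere. The rank correlation of the S and the G2 and M sums over the 80 cells was 0.19, where the other libraries had 0.44, 0.49, 0.64, 0.52 and 0.39. The cells share 1 library, and depth moved with both sums here (rank correlations of 0.37 for S and 0.27 for G2 and M with a cell's total), so these are descriptions.

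Stem cell genes were lower in the cells with high S or G2 and M sums, which was not particular to this library. The rank correlation of the HSC and S phase sums was -0.47 here and -0.52, -0.68, -0.68, -0.30 and -0.18 in the other libraries. That of the HSC and the G2 and M sums was -0.39 here and -0.42, -0.58, -0.57, -0.32 and -0.30 elsewhere. The 27 measured HSC genes summed to a median of 4528 CPM (959 to 6396) in the 23 cells with neither phase, 2879 CPM (1718 to 6495) in the 23 cells with S genes alone, 2615 CPM (477 to 5406) in the 17 with G2 and M genes alone and 2172 CPM (616 to 4423) in the 17 with both. The ranges overlap. A sum of 5000 CPM was reached by 9, 3, 1 and 0 cells of these classes. Depth moved with the classes too, with median totals of 86539, 171591, 196955 and 254258 counts, and the part of depth in this pattern was not tested. Megakaryocyte-platelet sums had medians of 1831, 1686, 1347 and 1265 CPM in the same order, and granulocyte-monocyte sums 3072, 2733, 3170 and 3097 CPM, so the latter stayed level across the classes. Cd48 had a count in 15 of 23, 18 of 23, 17 of 17 and 16 of 17 cells, with median levels of 15.4, 46.6, 93.4 and 143 CPM.

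**Figure D2:**
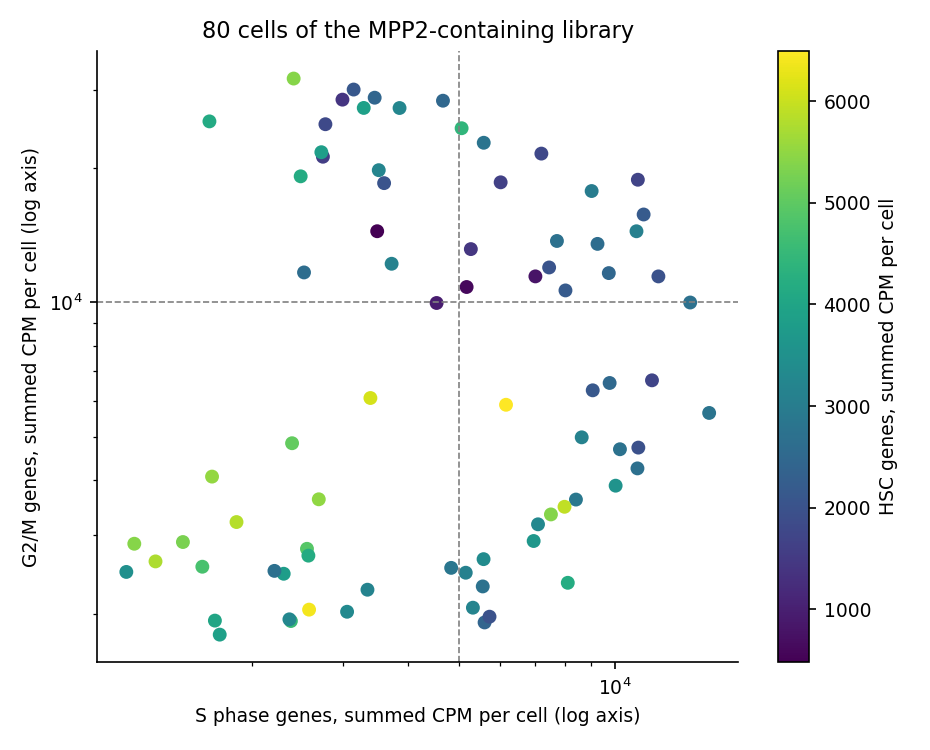
Summed CPM of S phase genes (x) and of G2/M genes (y) in each of the 80 MPP2-containing cells on log axes, coloured by the summed CPM of HSC genes, with dashed lines at 5000 and 10000 CPM. The 4 fields hold 17 (upper right), 17 (upper left), 23 (lower right) and 23 (lower left) cells, and 9 of the 13 cells with an HSC sum of 5000 CPM or more lie in the lower left field.

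Few genes were past 2-fold against all 5 libraries at once. Among the 8689 genes counted in at least 25% of the cells of some library, 4 were higher against all (Ccnb3, Hist1h4m, Igkc and Ccl5) and 2 lower (Myl10 and Gm10800, a predicted gene). Ccnb3 (ENSMUSG00000051592.14, protein coding, chrX:6979652-7041619, minus strand) encodes cyclin B3, a cyclin known mainly from meiosis. Its level rested on few cells. It stood at 28 CPM against 0.303, 0.308 and 0.174 CPM in the double-negative, HSC1 and HPC1 libraries. No count was found in HSC2/MPP4 or CD48-negative HSC2, which makes the level at least 36.7-fold and at least 26-fold higher. A count was present in 28 cells, 11 of 80 after thinning (13.8%), against 1 of 75 in the double-negative and none in the other thinned libraries. The highest 4 cells had 478, 478, 465 and 229 CPM, of which the values at the file's upper limit, in 2 cells, are lower bounds. These 4 cells held 89.5% of the 421 Ccnb3 counts, and without them the level was 3.13 CPM. Of the 7 cells at 50 CPM or more, 6 also had a G2 and M sum of at least 10000 CPM.

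Of the 8689 genes, 1379 were above a ratio of 0 against all 5 libraries, and the 15 with the highest least ratio included histone genes and genes of mitosis; no wider share of such genes was taken. Hist1h4m, a histone H4 gene (chr13:21811746-21812147, plus strand), had 0, 3.81 and 455.5 CPM in the lowest, median and highest cell. Its pooled level was 45.2 CPM against 0.809, 1.08, 5.14, 12.5 and 9.72 CPM, and 12 of the 14 cells at 50 CPM or more were high for G2 and M genes. Hist1h1b, a linker histone, stood at 145 CPM against 39.8, 68.1, 50.3, 67.5 and 13.7 CPM, and 25 of its 27 cells at that level were high for G2 and M genes. Histone genes of this family are near copies of each other, so reads may have been shared among them. Hist1h2ag, a histone H2A gene, was at 53.3 CPM against 11.7, 23.6, 18.6, 19.4 and 1.44 CPM. Cks2, a small subunit of the cyclin-dependent kinases, had 26.5, 352 and 2761 CPM in the lowest, median and highest cell and a pooled 706 CPM against 280.0, 297, 379, 384 and 160.5 CPM. Cks2 was counted in all 80 cells before thinning, and its log2 ratios were 1.30, 1.22, 0.88, 0.86 and 2.07. Aspm, a spindle pole protein, was at 84.1 CPM against 40.3, 32.2, 21, 31.1 and 24.5 CPM. Knstrn, the kinastrin protein of kinetochores, was at 122 CPM against 61.3, 51.9, 51.2, 63.2 and 28.8 CPM. Rad51b, a paralogue of the recombinase that repairs DNA breaks, was at 34.2 CPM against 8.4, 10.3, 14.6, 15 and 11.2 CPM. Rhno1, which acts in the checkpoint for stalled replication, was at 26 CPM against 10.1, 9.86, 8.37, 9.68 and 5.04 CPM.

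Some other high genes had a large part of their counts in 1 cell. Ccl5, a chemokine gene of T and NK cells, had 91.7% of its counts in 1 cell and stood at 33 CPM with that cell and 2.81 CPM without it. Igkc, the kappa light chain constant region of B cells, had 68.4% in 1 cell and went from 19.4 to 6.28 CPM. Naip2, an inflammasome gene, had 50.6% in 1 cell and went from 26.2 to 13.3 CPM. Lower levels of both genes were more widespread. Igkc reached 10 CPM in 20 of 80 cells, against 1, 5, 2, 0 and 0 cells elsewhere. Naip2 did so in 17 cells, against 5, 12, 13, 4 and 4. Retnlg and Mmp8, both neutrophil genes, stood at 8.46 and 9.25 CPM, with 40.9% and 45.3% of counts in 1 cell each. Values at the upper limit occurred in 1 cell each for Ccl5, Igkc, Retnlg and Mmp8, so their pooled levels are lower bounds.

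Genes low against every library included stem cell surface proteins. Ly6a (chr15:74994877-74998031, minus strand) encodes Sca-1, a surface antigen of mouse stem and early progenitor cells. It had 0, 28.3 and 786 CPM in the lowest, median and highest cell, where the medians of the other libraries were 51.1, 261, 45.8, 151 and 390 CPM. Pooled, Ly6a stood at 90.5 CPM against 204, 449.9, 191, 258 and 672 CPM. Myl10, a myosin light chain gene (chr5:136693146-136701094, plus strand), was at 8.99 CPM against 44, 48.2, 30.5, 179.7 and 422 CPM. Only 24 of the 80 cells had a Myl10 count, and both HSC2 libraries were the high end. Robo4, an adhesion and guidance receptor of stem cells and endothelium, was at 1.33 CPM with counts in 7 cells, against 12.2, 21.1, 18.2, 13.5 and 24.5 CPM. Pik3ip1, an inhibitor of PI3 kinase, was at 78.3 CPM against 163, 260.1, 175, 163 and 333 CPM. Gabarapl1, which takes part in autophagosome formation, was at 102 CPM against 187, 248, 203, 196 and 350.1 CPM. Gimap6, a GTPase of immune cells, was at 132 CPM against 241, 316, 225, 227 and 586 CPM. Ltb, lymphotoxin beta, was at 14.8 CPM against 34.9, 51.9, 31.1, 86.6 and 487 CPM. Unc93b1, which carries Toll-like receptors to endosomes, was at 23.6 CPM against 62.5, 61, 51.2, 106 and 71.3 CPM, and Pygm, the muscle glycogen phosphorylase, had counts in 6 cells only.

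**Figure D3:**
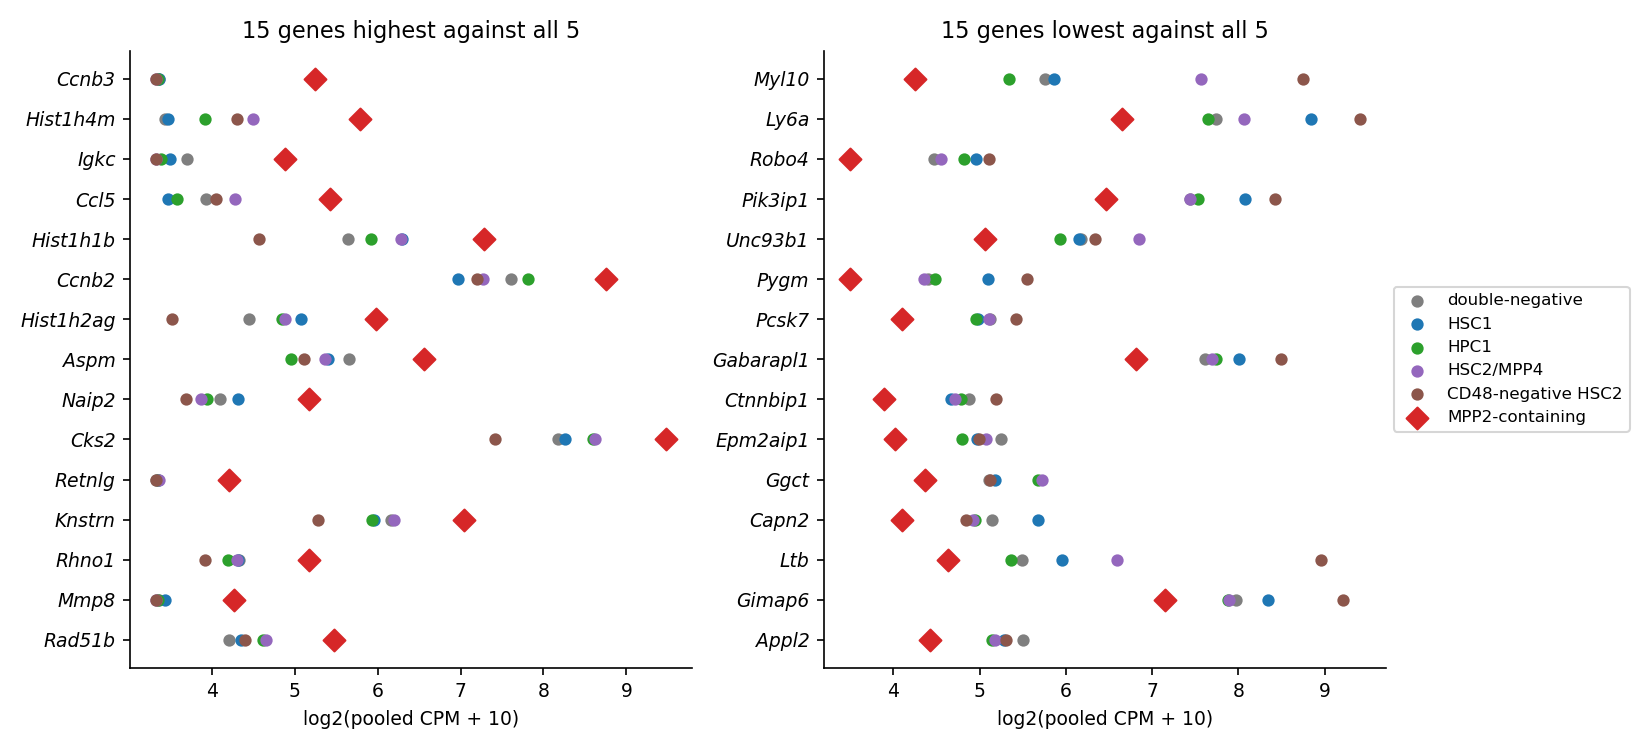
Pooled levels, as log2(CPM + 10), of the 15 genes highest and the 15 lowest against all other libraries; diamonds are the MPP2-containing library and circles the other 5. The diamonds lie to the right of every circle in the first panel and to the left in the second, with gaps that range from narrow to wide.

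The HSC list as a whole was lower than in the double-negative, HSC1 and HPC1 libraries and higher than in HSC2/MPP4. Of 27 measured genes of 29, 10, 14, 9, 3 and 8 were 2-fold lower and 0, 0, 0, 9 and 2 2-fold higher against the 5 libraries, and the median log2 ratios were -0.86, -1.02, -0.76, 0.59 and -0.23. Backgrounds of lower genes were 2.04, 2.67, 1.50, 2.17 and 4.86%. Per cell the sum ran from 477 to 6495 CPM with a median of 3080 CPM, and the other medians were 4929.7, 6047, 5427, 2635 and 6041 CPM. A sum of 5000 CPM was reached by 13 of 80 cells (16.2%), against 36, 52, 41, 13 and 58 cells. Mecom, a transcription factor needed for stem cell maintenance, stood at 46.1 CPM against 142, 134, 86.2, 64.7 and 223 CPM. Hlf, a factor that labels stem cells of the marrow, was at 79.9 CPM against 170.4, 269, 132, 126 and 399 CPM. Mllt3, which maintains the stem cell programme, was at 56.4 CPM against 168, 281, 146, 20.6 and 104 CPM, the HSC1 library being the highest.

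Some HSC genes stayed well above HSC2/MPP4. Gata2, a factor of stem cells and of the megakaryocyte and mast cell lines, was at 192 CPM against 227, 240.2, 197, 31.3 and 136 CPM, with log2 ratios of -0.24, -0.31, -0.04, 2.29 and 0.46. Pdzk1ip1, a membrane protein whose promoter marks stem cells, was at 207 CPM against 474, 443, 471, 36.4 and 209 CPM. Esam, an adhesion molecule shared by stem cells and megakaryocytes, was at 59.9 CPM against 89.1, 72.3, 125, 6.37 and 60.1 CPM. These 3 genes were level with or under the double-negative, HSC1 and HPC1 libraries and far over HSC2/MPP4. Sult1a1, a sulfotransferase, was also under the double-negative, HSC1 and HPC1 libraries and over HSC2/MPP4, with a wider span. It stood at 20.8 CPM against 35.2, 142, 168, 0.51 and 11.5 CPM.

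Megakaryocyte and platelet genes were counted in every cell and very high in a few. Of 25 measured genes of 27, 2, 7, 0, 16 and 12 were 2-fold higher and 1, 0, 6, 1 and 1 lower, with median log2 ratios of 0.09, 0.59, -0.76, 1.46 and 0.92, so HPC1 was the only one of the 5 with a median above this library's. Per cell the sum ran from 426 to 18204 CPM around a median of 1663 CPM. A sum of 5000 CPM was reached by 8 cells, against 2, 0, 22, 0 and 0. Pf4 (chr5:90772435-90773383, plus strand), platelet factor 4, had 22.9, 205 and 13224 CPM in the lowest, median and highest cell. All 80 cells had a Pf4 count, so presence did not separate the high cells from the rest. Pf4 reached 100 CPM in 57 of 80 cells, against 38 of 76, 25 of 84, 82 of 82, 2 of 89 and 11 of 86. Pooled, it stood at 895 CPM against 332, 103, 2709, 11.7 and 69.5 CPM, with log2 ratios of 1.40, 3.0, -1.59, 5.38 and 3.51. Gp1bb, part of a platelet adhesion receptor, was at 85.8 CPM against 45.5, 5.55, 175, 0 and 2.52 CPM, at least 112-fold higher than in HSC2/MPP4, where no count was found. Gp9, which belongs to that receptor, was at 101 CPM against 175, 78.9, 277, 3.31 and 44.3 CPM. Plek, a platelet kinase substrate, was at 88.2 CPM against 20.8, 36.2, 101, 54.5 and 44.3 CPM. Mmrn1, a platelet granule protein, was lower than in 3 libraries, at 47.5 CPM against 120.5, 72.3, 114, 9.17 and 43.5 CPM.

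Erythroid genes were strong in a few cells. The 4 highest erythroid sums were 11121, 8525, 7364 and 4708 CPM, and the same cells had megakaryocyte-platelet sums of 649, 537, 524 and 471 CPM, all under the library median of 1663 CPM. These cells were picked for their erythroid sums, and over all 80 cells the rank correlation of the erythroid and megakaryocyte-platelet sums was 0.12. In these 4 cells Car1, the carbonic anhydrase of early erythroid progenitors, was at 322, 6231, 4615 and 3141 CPM, and Klf1, the master regulator of the erythroid line, at 115, 472, 642 and 285 CPM. The highest sum, 11121 CPM, thus came mostly from other members of the list. That cell also differed in its HSC sum, 3147 CPM against 797, 616 and 2121 CPM, and in Cd34, 305 CPM against 16.3, 37.7 and 10.3 CPM. Over the library, Car1 (chr3:14766216-14808368, minus strand) had 0, 41.6 and 6231 CPM in the lowest, median and highest cell, and 55.5% of its counts lay in 1 cell. Its pooled level was 323 CPM against 29.6, 146, 13.6, 291 and 3.24 CPM. The Car1 log2 ratio against HSC2/MPP4 was 0.15 and became 4.61 when the highest cell of each library was left out, since a single HSC2/MPP4 cell at 9320.3 CPM carried that library. Car1 was higher against the other 4 with and without these cells, but without the deepest 10% of cells the log2 ratio of 1.09 against HSC1 was 0.34.

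By its medians over genes, the erythroid list as a whole differed less than these cells. Of 22 measured genes of 24, 6, 2, 3, 4 and 7 were 2-fold higher and 1, 2, 4, 1 and 6 lower, with median log2 ratios of 0.32, 0.14, -0.23, 0.52 and 0.47. Per cell the sum had a median of 510 CPM against 496, 594, 2113, 233 and 331 CPM, so HPC1 stood well above this library. A sum of 2000 CPM was reached by 7 of 80 cells, against 4, 11, 44, 3 and 8 cells. In HPC1, 33 of 82 cells lay within 20% of that value. Gata1, the shared regulator of erythroid and megakaryocyte cells, was at 78.6 CPM against 60.5, 55.3, 78.4, 12.5 and 1.08 CPM. Klf1 stood at 79.5 CPM against 24.6, 66.7, 43.2, 24.7 and 6.48 CPM. Without the deepest 10% of cells in each library its log2 ratio of 1.37 against the double-negative library became -0.08. Ermap, an erythroid membrane protein, went the same way, from 1.47 to -0.12 against that library. Globin transcripts were low, with Hbb-bs at 95.9 CPM against 138, 210.0, 1557, 54 and 921 CPM and Hba-a1 at 76.9 CPM against 75.6, 142, 1156, 36.4 and 738 CPM. The high globin of HPC1 and CD48-negative HSC2 lay partly in 3 and 2 cells in which haemoglobin genes were over 1% of counts, and no MPP2-containing cell was of that kind. Without all cells in which neutrophil, haemoglobin or granule enzyme genes exceeded 1% of counts (5 here, 5 in HPC1 and 3 in CD48-negative HSC2) the Hbb-bs log2 ratio of -3.13 against CD48-negative HSC2 became -0.06, while that against HPC1 was -2.54 in place of -3.89.

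**Figure D4:**
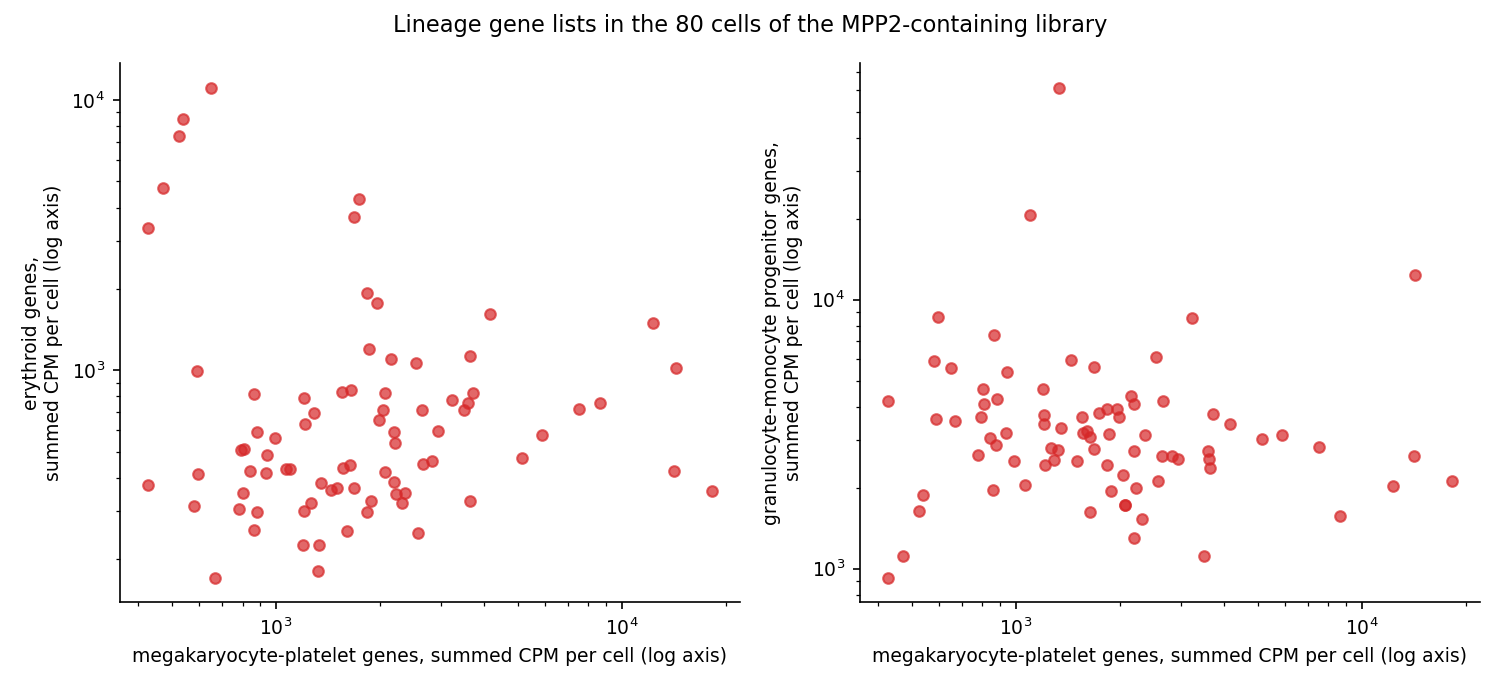
Summed CPM per cell of megakaryocyte-platelet genes (x) against erythroid genes (first panel) and granulocyte-monocyte progenitor genes (second panel) in the 80 MPP2-containing cells, log axes. The 4 cells with the highest erythroid sums (4708 to 11121 CPM) lie at the low end of the megakaryocyte-platelet axis (471 to 649 CPM).

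Granule enzymes of granulocyte and monocyte precursors were far above 4 libraries and below HSC2/MPP4. Mpo, myeloperoxidase (chr11:87793581-87804413, plus strand), had 15.4, 81.2 and 11905 CPM in the lowest, median and highest cell and was counted in all 80. Its pooled level was 515 CPM against 14.8, 48.4, 48.2, 3368 and 28.4 CPM, and 1 cell held 38.4% of the counts. Elane, neutrophil elastase, stood at 438 CPM against 10.4, 19.3, 47.1, 2691 and 4.32 CPM, with 60.4% in 1 cell. A low Elane level was nonetheless widespread, with 10 CPM reached in 72 of 80 cells, against 10 of 76, 13 of 84, 73 of 82, 44 of 89 and 6 of 86. Ctsg, cathepsin G, was at 376 CPM against 6.27, 5.55, 17.7, 1040.5 and 0.72 CPM, with 43.3% in 1 cell. The cell with the highest granulocyte-monocyte sum, 61549 CPM, had 11905 CPM of Mpo, 15921 of Elane and 9587 of Ctsg and an HSC sum of 959 CPM. The next, at 20715 CPM, had 4305, 3200 and 3674 CPM of these enzymes. Over the 80 cells the rank correlation of Mpo was 0.64 with Ctsg and 0.54 with Elane.

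Part of the granule signal rested on those cells. Without the cells rich in neutrophil, haemoglobin or granule enzyme genes, as above (5 of 80 here), the Mpo log2 ratios of 4.41, 3.17, 3.17, -2.69 and 3.77 became 2.57, 1.34, 1.42, -1.31 and 1.88. For Elane they went from 4.45, 3.94, 2.97, -2.59 and 4.97 to 1.11, 0.57, -0.34, 0.45 and 1.58, a change of sign against HPC1 and HSC2/MPP4. For Ctsg the ratio against HSC2/MPP4 was -1.45 with all cells, -0.32 without the rich cells and 0.64 without the deepest 10% of cells. Among 25 genes of the list, 10, 7, 7, 0 and 7 were 2-fold higher and 1, 0, 1, 15 and 5 lower, with median log2 ratios of 0.57, 0.33, 0.40, -1.23 and 0.34. Without the rich cells these medians were 0.2, -0.12, 0.04, -0.64 and 0.03, so that the sign against HSC1 turned and little was left of the difference from HPC1 and CD48-negative HSC2. Genes with a broader spread over cells were Nkg7, a granule membrane protein, at 435 CPM against 91.3, 270.4, 337, 483 and 77.4 CPM, and Plac8, a gene of myeloid and lymphoid progenitors, at 885 CPM against 403, 826, 198, 1946 and 491 CPM. Irf8, the regulator of monocyte and dendritic cell fate, was scarce at 5.26 CPM against 22.3, 10.9, 6.36, 222 and 11.2 CPM.

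Lymphoid progenitor genes were close to the double-negative and HSC1 libraries, above HPC1 and below HSC2/MPP4. Of 15 measured genes of 18, 2, 0, 4, 0 and 0 were 2-fold higher and 0, 1, 0, 6 and 2 lower, with median log2 ratios of 0.09, 0.03, 0.50, -0.71 and -0.20. Against HPC1 13 of the 15 were above a ratio of 0, and the 4 past 2-fold are 26.7% of the list, where the background is 0.843%. Dntt, the terminal transferase of early lymphocytes, was at 10.3 CPM against 0.303, 13.9, 0.0871, 555 and 25.9 CPM, and 81.2% of its counts lay in 1 cell with 707 CPM, which also had the highest lymphoid sum (7723 CPM) and 565 CPM of Flt3. Ighm, the immunoglobulin mu chain, was at 29.8 CPM against 0.101, 20, 2.44, 335 and 41.4 CPM. Like Ighm, Tespa1, a lymphocyte signalling protein, was low in the double-negative and HPC1 libraries. It stood at 78.8 CPM against 0.607, 92.5, 1.31, 192 and 86.7 CPM and was present in 44 of the 80 cells here.

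**Figure D5:**
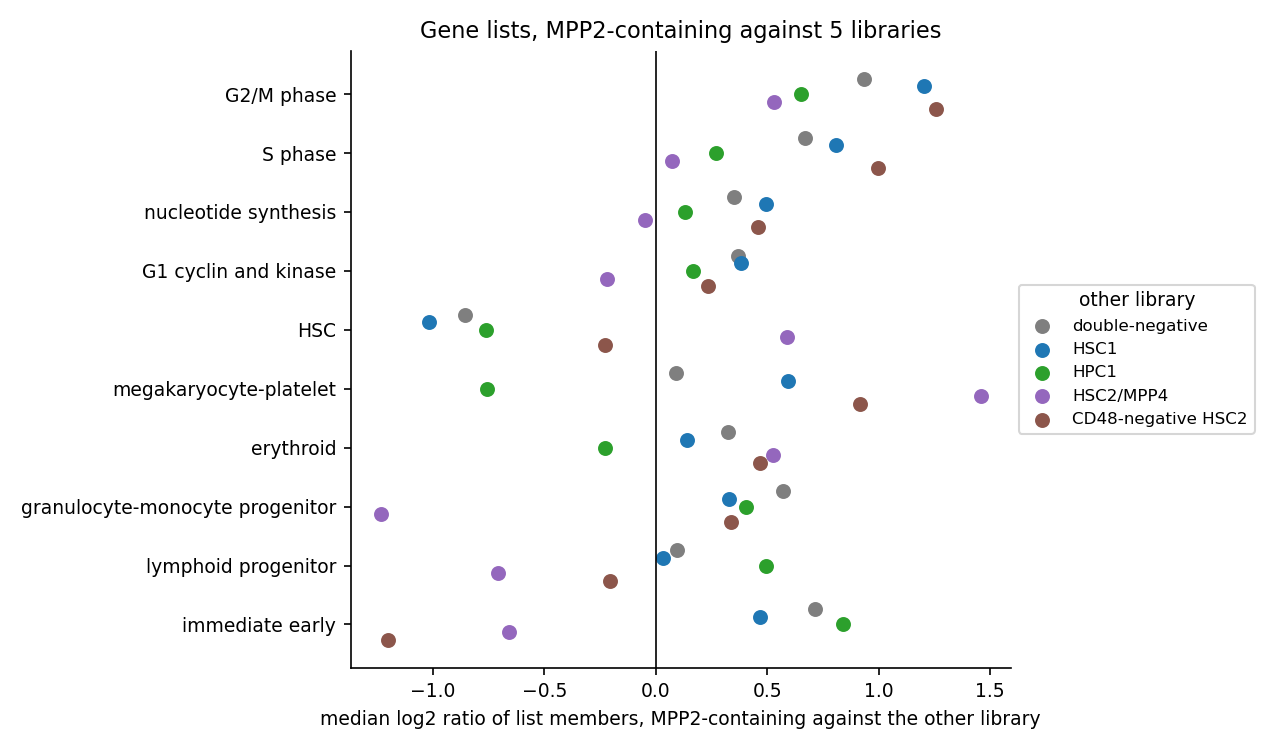
Median log2 ratio of the measured members of 10 gene lists, MPP2-containing against each of the other 5 libraries (1 point per library); the line marks 0. The G2/M medians lie between 0.53 and 1.26 for all 5, while the megakaryocyte-platelet medians range from -0.76 (HPC1) to 1.46 (HSC2/MPP4).

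Taking the comparisons one at a time, this library differed from the nearest, HPC1, by high Car1, Ctsg, Mpo and Tespa1 (log2 ratios 3.82, 3.80, 3.17 and 2.97). As given above, single cells held much of the Car1, Ctsg and Mpo counts here, and the Mpo ratio was smaller without the rich cells. Fos, an immediate early transcription factor, was at 1052 CPM against 249 CPM. The genes that were lowest against HPC1 were 4 globin genes, near copies whose reads may be shared, and Sult1a1, and the 10 lowest also included Jam2, a junction protein (1.8 against 30.4 CPM), and Npdc1 (17.8 against 79.9 CPM). The sample labels of these libraries differ in tissue, on which the sources disagree, and tissue cannot be told apart from gate.

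Against HSC2/MPP4, the highest genes included those of platelets (Pf4, Gp1bb, Itga2b and Gp9) and of apolipoprotein E. Apoe stood at 1377 CPM against 94.8 CPM (log2 ratio 3.73). Apoe was within 2-fold of the double-negative, HSC1 and HPC1 libraries and was also higher than in CD48-negative HSC2 (243 CPM), so both HSC2 libraries, which carry the total RNA label, were the low ones. Tnfaip2 was at 195 CPM against 19.1 CPM. The lowest genes were Dntt, Irf8, Myl10, Ighm, Cnn3, Flt3 and Mpo, with log2 ratios from -4.80 to -2.69. Emb, an adhesion protein of the granulocyte-monocyte list, was at 103 CPM against 524 CPM.

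Against CD48-negative HSC2, Esco2, which ties sister chromatids together in S phase, was at 100.4 CPM against 3.96 CPM. Gata1 was at 78.6 against 1.08 CPM. The lowest genes after Myl10 and Ltb included Dusp2, a phosphatase of activated cells (78.4 against 841 CPM), and Hes1, a target of Notch signalling (23.7 against 219 CPM). The 10 lowest genes against HSC1 included Procr (16.4 against 133 CPM), Xdh, xanthine dehydrogenase (1.2 against 47.2 CPM), and Nceh1, a cholesterol ester hydrolase (99.9 against 382 CPM). Against the double-negative library the lowest were Upp1, uridine phosphorylase (9.05 against 57.7 CPM), and Lrrc36, with 1 count here against 25.4 CPM.

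Immediate early genes, known for a fast and brief answer to stimuli and to tissue handling, were above the first 3 libraries and below both HSC2 libraries. Of 15 measured genes of 17, 3, 5, 4, 0 and 0 were 2-fold higher and 0, 0, 0, 5 and 10 lower, with median log2 ratios of 0.71, 0.47, 0.84, -0.66 and -1.20. Fos had 22.6, 685 and 4660 CPM in the lowest, median and highest cell and a pooled 1052 CPM against 311, 344, 249, 1591 and 2212 CPM. Within the library the highest Fos cell was thus far above the pooled level, and the ranges of all libraries overlapped. Nr4a1, an orphan nuclear receptor, was at 62.9 CPM against 7.69, 17.3, 28.9, 221 and 394 CPM. Klf6 was at 114 CPM against 65.7, 80.7, 53.7, 303 and 562 CPM, and Junb at 187 CPM against 109.9, 188, 78.2, 388 and 628 CPM. Both libraries with higher values carry the total RNA label, which cannot be told apart from their gates.

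Genes of cell-cycle restraint gave a mixed picture. Of 15 inhibitor and quiescence genes, 2, 1, 0, 1 and 1 were higher and 2, 2, 3, 1 and 4 lower, with median log2 ratios of 0.07, -0.36, 0.00, 0.04 and -0.20. Cdkn1a, the p21 inhibitor, was at 58.1 CPM against 7.38, 10.3, 28.4, 131 and 63.7 CPM. Txnip, a brake on glucose uptake, was at 162 CPM against 402, 464, 338, 203 and 513 CPM, lower than in all 5. Ndn, a growth suppressor of quiescent stem cells, was at 8.72 CPM against 35.1, 52.1, 28.1, 5.1 and 40.7 CPM. Among 10 measured G1 cyclins and kinases of 11, the medians were 0.37, 0.38, 0.17, -0.22 and 0.24. Cdk6, the kinase that opens G1 in progenitors, was at 448 CPM against 221, 333, 302, 229 and 107 CPM, whereas Ccnd1, cyclin D1, was at 9.25 CPM against 21.2, 26.5, 29.1, 57.8 and 20.2 CPM. Cdk6 was above and Ccnd1 below all 5 libraries.

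The remaining lists had medians from -0.71 to 0.22, apart from the 5 marker genes given at the end and the mature and stromal cell lists of the next paragraph. The 30 haematopoietic transcription factors had median log2 ratios of -0.14, -0.14, -0.08, 0.22 and -0.01, with 1, 1, 1, 7 and 4 members 2-fold higher and 1, 1, 0, 0 and 4 lower. The medians were 0.02, -0.21, 0.07, -0.63 and -0.54 for 20 cytokine receptors and -0.05, -0.05, 0.16, -0.08 and -0.14 for 13 measured genes of surface proteins used in sorting. Ribosome biogenesis genes (18 measured) had medians of 0.01, 0.14, 0.07, -0.31 and 0.15, and glycolysis genes (9 measured) 0.06, 0.10, 0.19, -0.44 and -0.17. Interferon response genes (15) had medians below 0 against all 5, at -0.29, -0.43, -0.25, -0.14 and -0.65, and Irf7, an interferon regulator, stood at 37.3 CPM against 94.4, 97.5, 60, 52.8 and 74.9 CPM. MHC class II genes (7) had medians of 0.02, -0.25, 0.02, -0.52 and -0.71. The 5 genes given as markers of these cells, Cd48, Top2a, Pclaf, Car1 and Cd34, had medians of 2.43, 1.09, 1.34, -0.15 and 1.90, and none was 2-fold higher against all 5 libraries.

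Markers of mature cells moved with single cells. The 11 mature neutrophil genes summed to a median of 379 CPM per cell, and 3 cells (101533, 89882 and 15699 CPM) held 82.7% of the list's counts. The first of these also had 14306 CPM of megakaryocyte-platelet and 12366 CPM of granulocyte-monocyte genes, and the second had 21222 CPM of G2 and M genes and 478 CPM of Ccnb3. No doublets were called, and their part in such cells was not tested. The list had median log2 ratios of 1.58, 2.43, -0.53, 0.85 and -0.55, and the summed level of 2730 CPM, against 789, 314, 4376, 5206 and 6592 CPM, became 393 CPM against 304, 314, 1171, 68.2 and 157 CPM without rich cells. S100a8 was counted in all 80 cells, from 69.4 CPM upwards. The lowest cell had a neutrophil sum of 147 CPM here and 420 CPM in HPC1, but 0 CPM in each other library. Cells with neutrophil genes over 1% of counts numbered 3 here, against 1, 0, 3, 1 and 1. Whether low counts of Pf4, Elane, Mpo, S100a8, Car1, Ccnb2 or Cks2 found across a library came from each cell's own RNA was not tested. The 9 measured macrophage-monocyte genes had medians of 0.40, 0.05, 0.13, 0.01 and 0.06, the 3 mature B cell genes 0.2, 0.2, 0.2, 0.2 and 0.2, the 4 T cell genes 0.21, 0.22, 0.39, -0.30 and -0.13, the 5 mast cell-basophil genes 0.31, 0.15, 0.39, 0.43 and 0.60 and the 6 endothelial and stromal genes -0.18, -0.27, -0.44, -0.07 and -0.61. The 2 measured NK cell genes had no count in the 80 cells. These lists summed to 102, 60.2, 16.8, 40.9, 43.6 and 0 CPM in the library. For mature B cell genes the other libraries had sums of 61.1, 56.1, 59.4, 58.4 and 75.9 CPM, so the positive medians did not go with a clearly higher sum. Of those 3 genes, 2, 1, 2, 2 and 1 had no count in the other libraries.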

How the data were processed

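Per the labels' protocols, RNA of single cells was copied with a modified Smart-seq2 protocol and sequenced on an Illumina HiSeq. The submitters' processing notes name TopHat, HTSeq and the mm10 build; no version, annotation, filter on cells or treatment of doublets is given in the sources used here. The authors deposited scores: each gene was scaled to a mean of 0 and an SD of 1 across the 497 cells of the series, with values below 0 and an upper limit of 10 (reached by 0.076%). The tables of the 2 HSC2 libraries carry no gene names; their rows were tied to the named table by that joint scaling, which 9901 genes without a value at the limit meet within 1.1e-10 of 0 for the mean. In cells with no count of a gene, scores depend on 2 covariates of the cell alone, which the authors' values show to have been regressed out, and this let the scaling be undone. Of 13278 genes, 11978 gave counts, and 100.0% of 1988512 values up to 50 were whole within 0.01. They hold 50.0 to 80.2% (median 60%) of a cell's total, and the rest, which includes abundant genes, was used in totals only. A value at the limit gives a lower bound on a count (2282 genes have at least 1). The unit differs from the counts that had been assumed when the comparisons were fixed, and they were kept as written. No profile occurred more than once among the 497 cells, and column names hold no barcodes to compare.

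Levels are counts pooled over a library per 1000000 (CPM), compared as log2(CPM + 10), and a gene was called past 2-fold. No test was possible with 1 library in each group, and doublets were neither called nor removed. Genes were named by rule: the 15 highest and 15 lowest against all 5 libraries, by the least of the 5 ratios, among genes counted in 25% of the cells of some library; for each comparison the 10 highest and 10 lowest whose share of cells with a count moved the same way (no predicted, mitochondrial or ribosomal protein genes); and members of the 25 lists. Medians and counts cover every measured member of a list, and some genes that the rule selects are not reported here. Shares of cells were taken after thinning to 10000 counts, which left out 1, 4, 1, 8 and 20 cells of the other libraries and none here. The cells, lists and genes were chosen with earlier results of these data known. Positions are from GENCODE M21 on GRCm38. Alternatives were other pseudocounts, the mean of per-cell levels, leaving out the highest cell, the deepest 10% of cells or cells rich in mature-cell transcripts, and the deposited scores. The scripts were tested on simulated data and used Python 3.11.15, numpy 2.4.6, scipy 1.17.1, pandas 2.3.3 and matplotlib 3.10.9.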

Additional observations from a re-analysis of the deposited data

How the results depend on the processing

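No paired analysis was possible because each group is 1 library and cells carry no replicate number. For the same reason no replicate could be left out. The numbers of 2-fold genes depended on the pseudocount. With 1 CPM they were 1228 higher and 1261 lower against the double-negative library, 1172 and 1472 against HSC1, 859 and 1215 against HPC1, 1259 and 1211 against HSC2/MPP4 and 1388 and 1902 against CD48-negative HSC2, and with 50 CPM 45 and 5, 46 and 18, 17 and 16, 42 and 59, and 105 and 83. With CPM taken over the recovered genes alone they were 366 and 496 against the double-negative library, 642 lower against HSC1, 202 and 360 against HPC1, 516 lower against HSC2/MPP4 and 987 lower against CD48-negative HSC2. The mean of per-cell CPM gave 159 lower against the double-negative library, and without the deepest 10% of cells 389 were higher against HSC1 and 207 against HPC1. For these changes in counts the cause was not tested. Under each alternative run, the G2 and M median stayed above 0 in all 5 comparisons and the HSC median below 0 against the double-negative, HSC1 and HPC1 libraries.

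Of 130 list medians, 36 changed sign under at least 1 alternative, 34 of them under 0.5 in size. Among these, the granulocyte-monocyte median against HSC1 went from 0.33 to -0.12 without rich cells, the erythroid medians against the double-negative and HSC1 libraries from 0.32 to -0.10 and from 0.14 to -0.04 without the deepest cells, and that against HPC1 from -0.23 to 0.04 without rich cells. With the deposited scores, the S phase median against HSC2/MPP4 went from 0.07 to -0.16, and the HSC and lymphoid medians against CD48-negative HSC2 from -0.23 to 0.03 and from -0.20 to 0.09. Larger values (list medians of at least 0.5, genes past 2-fold) that changed sign follow. The cause was not tested for any of these. The mature neutrophil median against HPC1 became 0.23 (mean of per-cell CPM), 0.60 (without the highest cell) and 1.30 (without the deepest cells), and against CD48-negative HSC2 0.012, 2.07, 0.56 (without rich cells) and 0.29 (deposited scores). Ccl5 became -0.41 against the double-negative library, -0.29 against HSC2/MPP4 and -0.64 against CD48-negative HSC2 without the deepest cells, and -0.082 and -0.50 against HSC2/MPP4 as a mean per cell and without the highest cell. Without the deepest cells Chil3 against HPC1 became 0.92, Ctsg against HSC2/MPP4 0.64, Ermap -0.12, -0.48 and -0.10 against the double-negative, HPC1 and CD48-negative HSC2 libraries, Klf1 -0.077 against the double-negative library, and Hba-a1 and Hbb-bs 0.29 and 0.42 against CD48-negative HSC2. Without rich cells Elane became -0.34 against HPC1 and 0.45 against HSC2/MPP4, and S100a8 2.31 and 1.30 against the HSC2 libraries, or 4.09 and 2.07 without its highest cell. Single cells weighed on some levels: 10 of the 3261 genes at 50 CPM or more in the library had over 50% of their counts in 1 cell. The other libraries had 9 of 3354, 5 of 3331, 18 of 3259, 17 of 3257 and 32 of 3444 such genes.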

Other observations

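Of the list genes that gave no counts, 10 were read as deposited scores, in units of the SD over all cells of the series. Others were counted in too few cells to be recovered and were not read as scores. Car2, carbonic anhydrase 2 of the erythroid line, had a mean score of 0.154 in the MPP2-containing cells against -1.02 in HSC2/MPP4 and 0.602 in the double-negative cells. Ccnd2, cyclin D2, was at -0.114 against 0.380, 0.148, 0.256, -0.513 and -0.0870. Ncl, nucleolin, was at 0.0965 against 0.00893, -0.349, -0.307, 0.444 and 0.0768, and Ifitm3 at -0.151 against 0.269, 0.282, 0.399, -0.641 and -0.0898.

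The design text of the series gives 324 cells for the populations of the first 4 libraries, 48 of them MPP2, while the joint table holds 322. The 48 MPP2 cells could not be picked out among the 80.

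Gene pairs outside the lists' own logic also varied together over the 80 cells. The rank correlation of Flt3 with Ly6a was 0.49, of Itga2b with Ly6a -0.44, of Cd34 with Gata1 -0.44 and of Car1 with Mt1, a metallothionein, 0.41. They are 4 of 253 pairs computed, named after their values were seen and given as descriptions with no test, over cells of 1 library that differ in depth.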
